A study of Mus musculus with 24 samples.

Results

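Glycolysis and the transcriptional response to low oxygen were followed through 35 genes in mammary tumours of mice. The set was chosen by name and role and not by measured values, although earlier results of these data were known. It holds 17 glucose uptake and glycolytic chain genes, 3 regulators of glycolysis, 11 hypoxia target genes, and 4 oxygen sensors and hypoxia-inducible factors. They are 35 of the 46318 gene IDs in the count files, and all 35 had enough reads to be tested. RNA was sequenced in 24 tumour libraries from MMTV-PyMT mice, whose mammary epithelium carries an active polyoma middle T transgene under the MMTV promoter and forms tumours. The genotype labels name 12 libraries NR0B2-/- PyMT+ (SHP KO, here KO 1 to KO 12) and 12 libraries NR0B2+/+ PyMT+ (SHP WT, here WT 13 to WT 24). All 24 carry the PyMT transgene, and all tumours were taken at a volume of 2000 mm3. Nr0b2 encodes SHP, an orphan nuclear receptor that represses transcription. The labels give no age or treatment, and they do not say whether each tumour came from a separate mouse. Every p-value treats the 24 tumours as independent, and may be too small if some of them shared a mouse. The tumour-to-tumour spread it reflects may also in part be technical.

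Glycolysis splits glucose into pyruvate, which is either reduced to lactate or passed to the mitochondria through the pyruvate dehydrogenase complex. Hypoxia-inducible factors (HIFs) pair an oxygen-labile alpha subunit, such as HIF-1α or HIF-2α, with the stable partner ARNT, and bind the core sequence ACGTG or GCGTG in regulatory DNA. In the presence of oxygen, prolyl hydroxylases of the EGLN family mark the alpha subunit for destruction through VHL. Many genes of glycolysis are HIF targets, and solid tumours outgrow their blood supply, so both groups of genes are commonly examined together in them.

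The genotype check went against the labels: all 12 libraries labelled KO held reads of Nr0b2, 182 in total, and 11 of the 12 labelled WT held none, with 1 read in the remaining one. The KO libraries held from 3 to 71 such reads each, with 71 in KO 12, and the source of these reads was not tested. KO and WT are therefore used below only as names of the label groups, and each direction is read from the labels. Each library had between 18789250 and 38022182 counted reads. The members took 0.752% to 1.76% of the reads of a KO library and 0.704% to 1.49% of a WT library. Summed epithelial markers stood between 3791 and 9030 CPM (read counts scaled to library size) in all 24 libraries, and markers of muscle, fat and stroma varied much more. Library KO 11 had the highest skeletal muscle sum (6559 CPM, against KO and WT medians of 255 and 82.4 CPM) and also the highest adipocyte, endothelial, macrophage, fibroblast and erythroid sums. Library KO 12 had the highest epithelial sum and the lowest fibroblast sum (616 CPM), and its scaling factor (trimmed mean of M-values, TMM) of 0.829 was the lowest of the 24. In bulk tumours, fewer cells of a type and less RNA per cell cannot be told apart.

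The promoters of 5 members are shown because they mark the range of behaviour described below: Pgk1, Slc2a1 and Ero1a moved most closely with the other members from tumour to tumour among those holding an ACGTG, Car9 had the second smallest p-value between the groups, and Car12 moved against the others. They were picked after those values were seen, and other members differed from this picture. Averaged over KO and WT, the median Pearson r with the other members was 0.778 for Pgk1, 0.736 for Slc2a1 and 0.731 for Ero1a. Tpi1 (0.768) and Gapdh (0.757) had no ACGTG in their windows. Hif1a (-0.249) and Pfkm (-0.300) had windows that held it. Each line gives the 250 bases before the RefSeq transcript start, 5′ to 3′ on the gene's strand, in GRCm38.p6, and capitals mark ACGTG or GCGTG read on either strand.
Pgk1: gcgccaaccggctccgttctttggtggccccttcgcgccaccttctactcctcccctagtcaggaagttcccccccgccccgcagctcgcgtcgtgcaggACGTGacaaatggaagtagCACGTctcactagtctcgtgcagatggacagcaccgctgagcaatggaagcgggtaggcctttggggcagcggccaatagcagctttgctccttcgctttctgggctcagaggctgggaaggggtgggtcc
Slc2a1: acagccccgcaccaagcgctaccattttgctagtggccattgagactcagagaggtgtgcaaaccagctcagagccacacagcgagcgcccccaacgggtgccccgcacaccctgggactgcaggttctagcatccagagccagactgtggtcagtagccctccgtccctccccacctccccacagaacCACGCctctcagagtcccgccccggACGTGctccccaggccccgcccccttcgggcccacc
Ero1a: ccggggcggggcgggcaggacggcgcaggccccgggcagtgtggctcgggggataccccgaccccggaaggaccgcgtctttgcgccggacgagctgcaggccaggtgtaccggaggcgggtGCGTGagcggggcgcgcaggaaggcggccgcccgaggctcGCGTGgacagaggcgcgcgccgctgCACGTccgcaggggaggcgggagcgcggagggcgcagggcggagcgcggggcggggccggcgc
Car9: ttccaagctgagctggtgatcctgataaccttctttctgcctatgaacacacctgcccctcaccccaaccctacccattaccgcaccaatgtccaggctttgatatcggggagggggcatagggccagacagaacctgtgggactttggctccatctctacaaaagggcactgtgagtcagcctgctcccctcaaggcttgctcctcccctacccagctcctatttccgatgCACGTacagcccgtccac
Car12: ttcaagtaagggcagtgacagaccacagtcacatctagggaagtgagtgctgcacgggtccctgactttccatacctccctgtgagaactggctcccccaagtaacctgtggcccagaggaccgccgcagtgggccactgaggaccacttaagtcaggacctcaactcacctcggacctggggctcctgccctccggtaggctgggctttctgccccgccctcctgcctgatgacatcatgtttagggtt

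These windows lie at chrX:106186850-106187099 (plus strand) for Pgk1, chr4:119108495-119108744 (plus) for Slc2a1, chr14:45318573-45318822 (minus) for Ero1a, chr4:43506776-43507025 (plus) for Car9 and chr9:66713436-66713685 (plus) for Car12. In Pgk1, ACGTG has 2 matches, with first bases 150 and 131 bases before the start. The Slc2a1 window holds one at 36 bases, the Ero1a window at 63 bases and the Car9 window at 18 bases, and the Car12 window holds neither sequence. The RefSeq table gave windows for 32 members (45 windows, since some genes have several starts), and none for Bnip3l, Ndrg1 and Epas1. ACGTG was present in 22 of the 45 member windows (48.9%) and in 16.6% of the 32851 windows of all genes. GCGTG was present in 25 member windows (55.6%) and in 28.2% of all. By gene, 19 of 32 members (59.4%) had a window with ACGTG, against 18.5% of 27025 genes. Both strands were searched, and CACGTG, which reads as ACGTG on each strand, was counted once per window in these shares. Member windows were also richer in G and C (61.1% against 53.2%), and the part of base composition in the difference was not tested. The members were listed by role, hypoxia targets among them, so a higher share of ACGTG is no test of that role. The genes they were set against were all those with a window, whatever their expression. The letters alone do not show binding by any factor.

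Levels per exon length set the frame for the comparisons, and are given as TPM, which divides reads by exon length and rescales to a fixed total. Of the 35 members, 15 averaged over 100 TPM. Aldoa, the main aldolase of muscle and many tumours, was highest at 1199 ± 293 TPM in KO and 1328 ± 605 TPM in WT (SD, n = 12 each). Gapdh averaged 787, Eno1 767, Tpi1 732 and Ldha 684 TPM over all libraries, and the ranges of these genes overlapped one another. Eno2, the neuronal enolase, was lowest at 0.747 TPM, with as few as 10 reads in a library. Ankrd37 (4.83 TPM) and Pfkfb4 (3.89 TPM) were the next lowest.

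**Figure D1:**
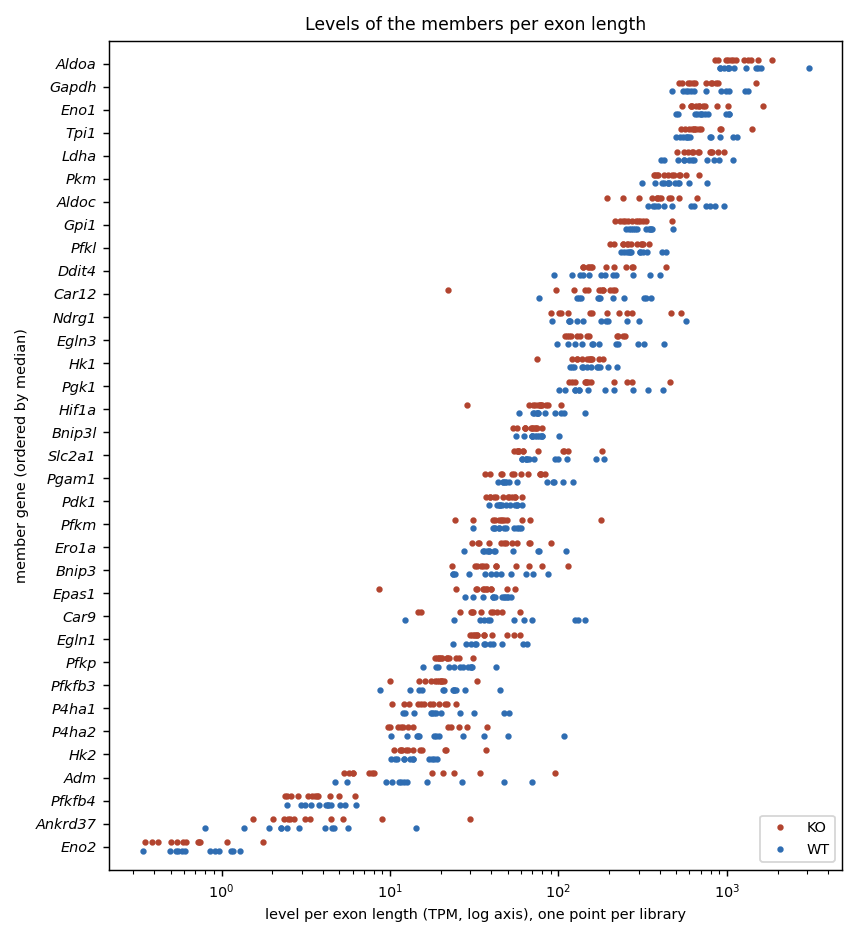
Level of each member per exon length (TPM, log axis), one point per library, KO in red and WT in blue, with genes ordered by their median. Aldoa is at the top and Eno2 at the bottom, and the 2 groups overlap for every gene.

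At the steps of the chain compared here, 1 of the isoforms compared was higher than the others in every library, by margins that differed between steps. The Hk2 to Hk1 ratio of reads per kilobase had a median of 0.0949 in KO and 0.0872 in WT, so Hk1, the broadly expressed hexokinase, exceeded Hk2, the inducible one, in every library (highest ratio 0.29, in KO 11). Pfkl, the liver-type phosphofructokinase, exceeded Pfkm, the muscle type, and Pfkp, the platelet type. The Pfkm to Pfkl ratio ran from 0.0709 to 0.841, and the highest value again belonged to KO 11, the library with the highest muscle markers; the part of muscle in that value was not tested. Aldoc, the brain-type aldolase, stood at a median of 0.377 of Aldoa in KO and 0.436 in WT, and reached 0.737 in WT 15. Among the oxygen sensors, Egln3 (PHD3) exceeded Egln1 (PHD2) in all libraries, with ratios from 2.02 to 11.7. Hif1a exceeded Epas1 (HIF-2α) throughout, with an Epas1 to Hif1a ratio between 0.302 and 0.762. Car9 and Car12, both membrane carbonic anhydrases that acidify the outside of the cell, had a ratio of 0.0962 to 2.69, and KO 12 was the library in which Car9 most exceeded Car12. Of 12 such ratios compared between KO and WT by permutation (two-sided, 100000 resamples), none passed after Benjamini-Hochberg adjustment. The smallest p belonged to Aldoc over Aldoa (log2 difference, KO minus WT, -0.44 ± 0.25 (SE), permutation p = 0.0937, adjusted p = 0.694, n = 12 each).

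The first question of the design is whether the groups labelled KO and WT differed in these genes. No member passed the test: 0 of 35 had an adjusted p under 0.05 in edgeR's quasi-likelihood test with Benjamini-Hochberg adjustment over 15820 genes, against 50 genes of all tested (0.316%; 0.177% higher and 0.139% lower in KO). DESeq2 also called 0 of the 35, against 495 of 18247 genes. At an unadjusted p under 0.05 in edgeR, 1 member was lower in KO and 0 were higher. In the same test 18.9% of all genes passed that level (10% higher, 8.9% lower). DESeq2 had 2 members lower at that level, Aldoc and Car9, and 0 higher. Its own share of all genes there was not counted, so these 2 have no background beside them. Log2 changes were above 0 for 21 members and below 0 for 14, and 51.3% of all genes were above 0. Their median was 0.042, and that of all genes 0.0075. The KO and WT ranges overlapped for all 35. The share of all genes with overlapping ranges was not counted, so the overlap is not read as a trait of the members. For 30 members the 95% interval of the fold change lay within 2-fold in either direction, and for 15 within 1.5-fold, so small differences between the groups are not shown to be absent.

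The balance above and below 0 depended on 1 library. Without KO 12, 8 of 35 members were above 0, against 47.1% of all genes, and the member median was -0.074. Leaving out any one of the other 23 libraries kept between 19 and 25 members above 0, and without KO 11 there were 21. Without KO 11 and KO 12 together, 9 members were above 0 and the median was -0.098. With library totals in place of TMM scaling, 16 were above 0, against 41.5% of all genes, whose median moved to -0.046. With muscle and adipocyte marker scores as covariates, 24 were above 0 (50.1% of all genes), and 8 members were higher at an unadjusted p under 0.05 (Tpi1, Pgk1, Pkm, Ldha, Ndrg1, Ankrd37, Ero1a and Ddit4), as were 10.9% of all genes. No member was called in any of these 3 fits, and with the covariates the lowest adjusted p was 0.0976, for Ldha at a log2 change of 0.51 (edgeR).

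**Figure D2:**
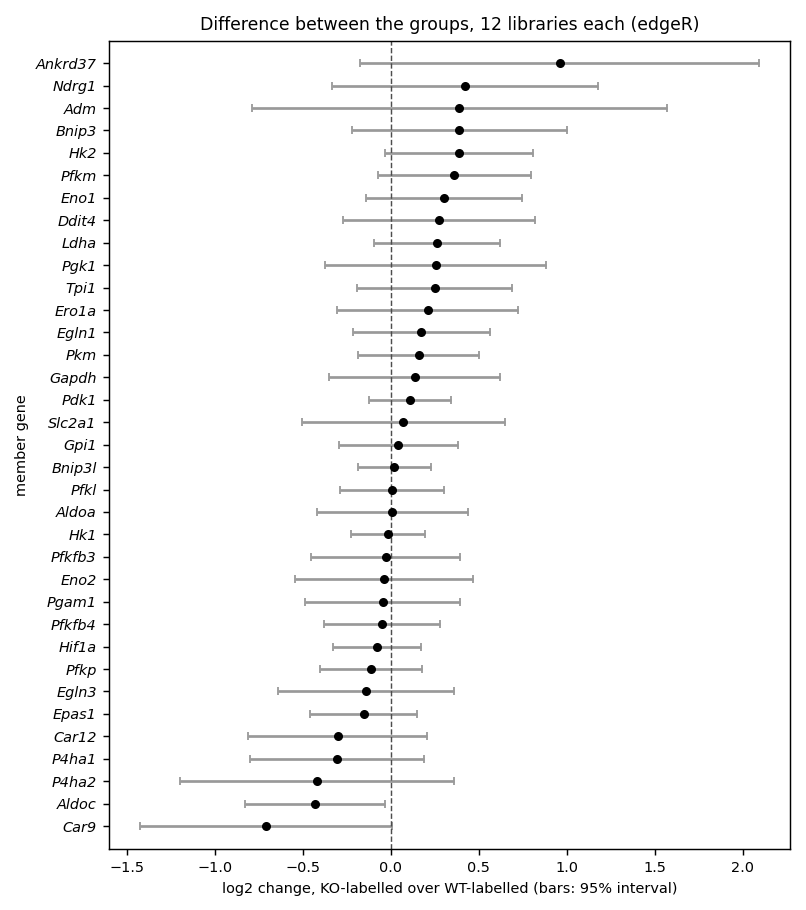
Log2 change of each member, KO over WT, with its 95% interval from edgeR (12 libraries each), ordered by size. Intervals of 34 genes include 0, and that of Aldoc lies just below it.

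Aldoc, aldolase C (chromosome 11, 78213899 to 78218607, plus strand, GRCm39), had the smallest p. Its CPM ranged from 226 through a median of 468 to 746 in KO, and from 365 through 601 to 1063 in WT. The KO libraries sat lower on the whole, with 2 of 12 above the WT median, but the ranges overlapped. The log2 change was -0.43 ± 0.19 (SE; edgeR adjusted p = 0.23, unadjusted p = 0.0337). KO 11, the library richest in muscle and fat markers, was the lowest of all, and the log2 change was -0.34 with muscle and adipocyte marker scores as covariates. In the authors' deposited table Aldoc has a p-value of 0.0311 and an adjusted p of 0.223.

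Car9, carbonic anhydrase IX (chromosome 4, 43507026 to 43513729, plus strand, GRCm39), came next. It ran from 13 through 31.8 to 85 CPM in KO and from 10.7 through 40.8 to 129 CPM in WT. WT 21, WT 22 and WT 23 were above 100 CPM, and KO 12 was the only KO library above 80 CPM. The log2 change was -0.71 ± 0.35 (SE; edgeR adjusted p = 0.268, unadjusted p = 0.0517), and the authors' deposited table gives a p-value of 0.0469. With the muscle and adipocyte scores as covariates it was -0.24. Car9 shares 153 exonic bases with Arhgef39 on the opposite strand, and no strand option stands in the count files' headers, so reads from that stretch cannot be assigned.

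Ankrd37 (chromosome 8, 46449945 to 46453272, minus strand, GRCm39), which encodes an ankyrin-repeat protein and is a known HIF target, had the largest change above 0. Ankrd37 shares 51 exonic bases with Ufsp2 on the opposite strand, which had 34823 reads over all libraries, against 2416 for Ankrd37. As for Car9, reads from the shared stretch cannot be assigned. Ankrd37 values ran from 1.22 through 2.53 to 39.9 CPM in KO and from 0.646 through 2.03 to 11.2 CPM in WT. KO 12 alone was at 39.9 CPM, and the next KO library at 7.5 CPM. The log2 change was 0.96 ± 0.55 (SE; edgeR adjusted p = 0.339), and without KO 12 it was -0.07. Adm (chromosome 7, 110226864 to 110229027, plus strand, GRCm39), encoding the vasodilator peptide adrenomedullin, showed the same dependence: KO values of 3.08, 4.4 and 86.5 CPM (lowest, median, highest) and WT values of 2.45, 6.39 and 36.9 CPM gave 0.39 ± 0.57 (SE; edgeR adjusted p = 0.727), and -0.53 without KO 12. DESeq2 replaces counts it judges outlying in large groups; for Adm and Ankrd37 it replaced KO 12, and gave -0.53 and -0.08.

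None of the remaining genes of the glycolytic chain passed at either threshold. Slc2a1, the glucose transporter GLUT1, had medians of 67.1 CPM in KO and 69.8 CPM in WT (log2 change 0.07 ± 0.28). Hk2 ran from 24.9 to 90.8 CPM in KO and 23.5 to 46.7 CPM in WT (0.39 ± 0.20; edgeR adjusted p = 0.305). Pfkm ran from 47.3 to 242 CPM in KO and 39.3 to 77.4 CPM in WT (0.36 ± 0.21; edgeR adjusted p = 0.348). For both genes KO 11 was the highest library, and without it the changes were 0.23 and 0.05. Hk1 was at -0.02 ± 0.10, and Gpi1, glucose phosphate isomerase, at 0.04 ± 0.17, with medians of 338 CPM in KO and 343 CPM in WT. Pfkl and Pfkp were at 0.01 ± 0.14 and -0.12 ± 0.14. Aldoa had the smallest change of all (0.007 ± 0.21), with KO values of 837, 1103 and 2426 CPM and WT values of 820, 989 and 3041 CPM. Of the 8 members that follow aldolase in the chain, 6 had changes above 0: Tpi1 (triose phosphate isomerase) 0.25 ± 0.21, Gapdh (glyceraldehyde phosphate dehydrogenase) 0.13 ± 0.23, Pgk1 (phosphoglycerate kinase) 0.25 ± 0.31, Eno1 (enolase) 0.30 ± 0.22, Pkm (pyruvate kinase) 0.16 ± 0.17 and Ldha (lactate dehydrogenase A) 0.26 ± 0.17. Pgam1 (phosphoglycerate mutase) and Eno2 were below 0, at -0.05 ± 0.21 and -0.04 ± 0.25. Pgam1 had medians of 40.6 CPM in KO and 37.1 CPM in WT, and Pkm medians of 1383 and 1305 CPM. Without KO 12 only Eno1 (0.0026) and Ldha of these 8 stayed above 0, with Tpi1, Gapdh, Pgk1 and Pkm at -0.02, -0.14, -0.11 and -0.01. Ldha had medians of 1453 CPM in KO and 1219 CPM in WT, and 10 of 12 KO libraries lay above the WT median; its lowest value on leaving out a library was 0.15, without KO 12.

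The changes of all 3 regulators were smaller than their standard errors. Pdk1, the kinase that shuts off pyruvate dehydrogenase, had medians of 127 CPM in KO and 119 CPM in WT (0.11 ± 0.11). Pfkfb3 and Pfkfb4, which make the phosphofructokinase activator fructose 2,6-bisphosphate, were at -0.03 ± 0.21 and -0.05 ± 0.16. All 3 had wide overlap between groups.

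Hypoxia target genes were above 0 for 7 of 11, where 51.3% of all genes were, with a list median of 0.21, and none passed at either threshold. Without KO 12, 2 of the 11 were above 0 and the list median was -0.07; each other fit that left out 1 library kept 6 or 7 above 0. Bnip3 and Bnip3l encode receptors for mitophagy: Bnip3 ran from 16 to 131 CPM in KO and 15.4 to 58.4 CPM in WT (0.39 ± 0.30), and Bnip3l from 99.2 to 207 CPM and 93.7 to 167 CPM (0.02 ± 0.10). Ndrg1, a stress-induced gene, had medians of 204 and 177 CPM (0.42 ± 0.37). Ero1a, the oxidase of the endoplasmic reticulum, and Ddit4, an inhibitor of mTORC1 signalling, were at 0.21 ± 0.25 and 0.27 ± 0.27. The collagen prolyl hydroxylase subunits P4ha1 and P4ha2 were at -0.31 ± 0.24 and -0.42 ± 0.38, and Car12 at -0.30 ± 0.25. KO 12 was the highest library for Bnip3, Bnip3l, Ndrg1, Ero1a and Ddit4, and the lowest for Car12, at 81.3 CPM.

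None of the oxygen sensors and factors passed. Egln1 had medians of 49.4 CPM in KO and 50 CPM in WT (0.17 ± 0.19), and Egln3 178 and 194 CPM (-0.14 ± 0.24). Hif1a had medians of 155 and 150 CPM (-0.08 ± 0.12), and Epas1 79.4 and 93.7 CPM (-0.16 ± 0.15). KO 12 had the lowest level of both factors, at 93.4 CPM for Hif1a and 30.8 CPM for Epas1.

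**Figure D3:**
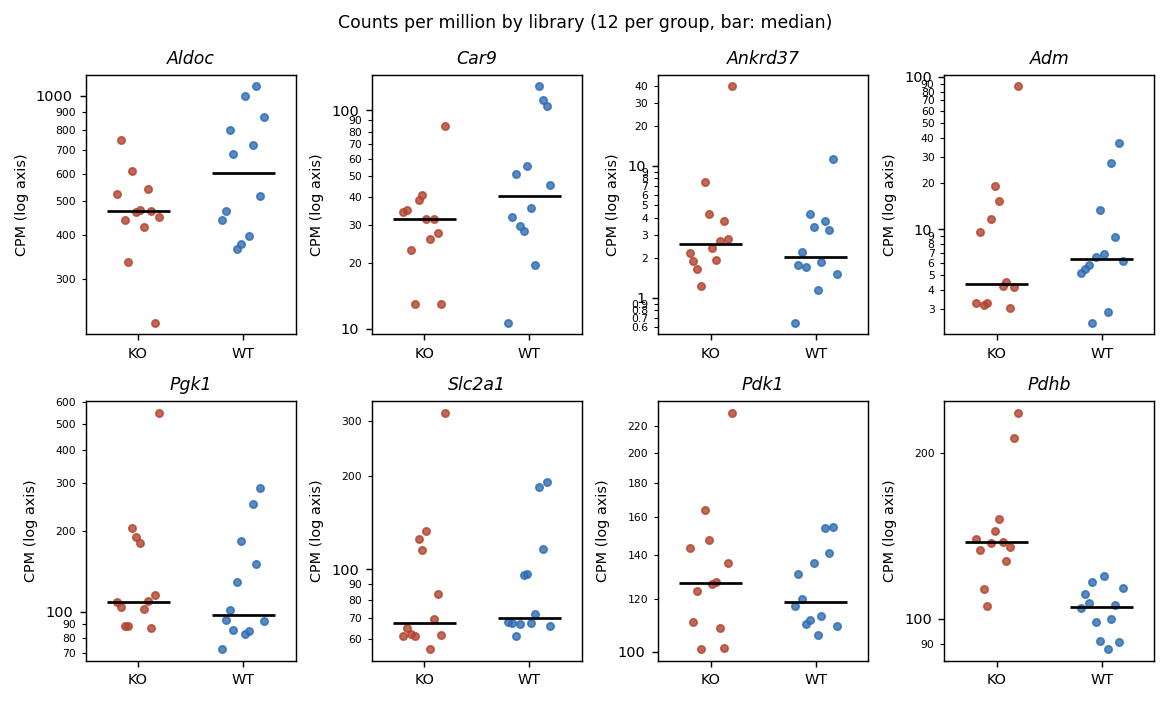
CPM on a log axis for 7 members and for Pdhb, one point per library with the group median as a bar. Single high libraries, KO 12 above all, set the top of the KO range for Ankrd37, Adm, Pgk1 and Slc2a1, and only Pdhb, which is not a member, passed the test.

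Within each group the tumours varied widely. On the TMM scale KO 12 was the highest of 24 libraries for 19 of 35 members, KO 11 for 5, WT 21 for 4 and WT 23 for 3. Relative to the mean over all libraries, the 11 hypoxia targets of KO 12 averaged 1.59 higher in log2 CPM and the 17 glycolytic genes 0.98 higher. WT 23 followed for the hypoxia targets (1.21), then WT 21 (0.69) and KO 5 (0.50). KO 4 (-0.67) and WT 13 (-0.65) were lowest. The place of KO 12 depended on the scale: with library totals alone it was highest for 18 members, and per exon length (TPM) for 8, where WT 23 was highest for 12. High hypoxia-target libraries had low fat markers: mean centred adipocyte marker values were -1.94 in KO 12, -3.82 in WT 23 and -2.48 in WT 21, and -1.25 in KO 5. Their fibroblast values were -1.32, -0.78, -0.88 and -0.37. The part of tissue make-up in these member levels was not tested.

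**Figure D4:**
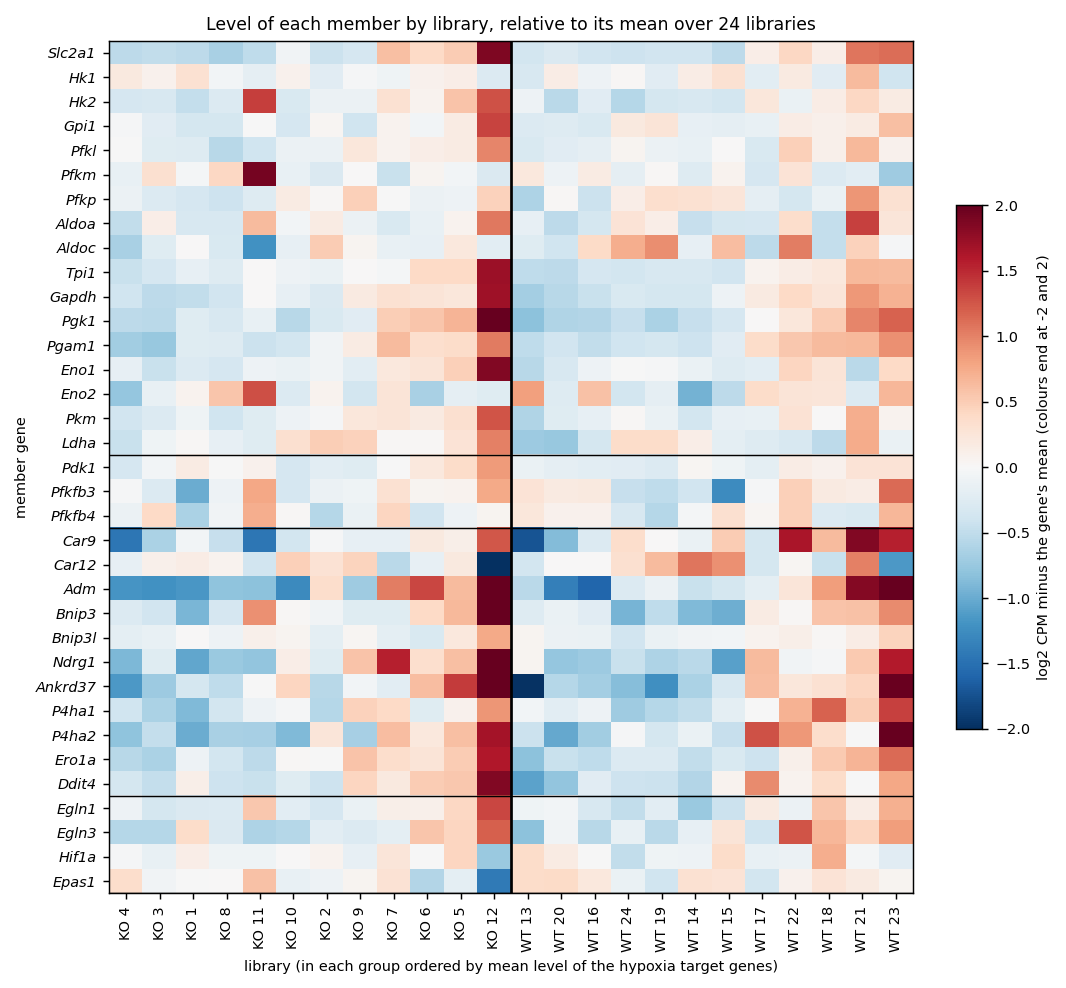
Log2 CPM of each member minus its mean over 24 libraries, with libraries ordered inside each group by their hypoxia-target mean and horizontal lines between the 4 sets of genes. The columns KO 12, WT 21 and WT 23 are red through most rows, and Car12, Hif1a and Epas1 are blue in KO 12.

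Spread between tumours, as the SD of log2 CPM, was greater for the members than for most genes, with a median percentile among all tested genes of 73.5 in KO and 73.1 in WT. Adm varied most (percentile 97.9 in KO and 95 in WT), and its highest KO library was 28.1 times its lowest. Ankrd37 (97.1 and 93), Ndrg1 (93.7 and 85.4) and P4ha2 (88 and 91.8) followed, and Car9 reached 93.7 in WT. Bnip3l (35.5 and 28), Pdk1 (46.3 and 26.1) and Hk1 (12.3 and 47.7) were among the steadiest.

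Members moved together across tumours. The median Pearson r over the 595 pairs of members was 0.565 in KO and 0.411 in WT, and over all pairs of tested genes -0.002 and -0.001. Pairs above 0.5 made up 54.1% in KO and 43.4% in WT, against 15% and 9.49% of all pairs. Among the hypoxia targets the median was 0.737 in KO and 0.688 in WT. Without KO 12 the KO medians were 0.317 for all members and 0.407 for the targets, with 32.9% of member pairs above 0.5 and 10.3% of all pairs. These are descriptions over 12 (or 11) libraries that share their scaling factors and tissue make-up, and carry no p. Some members went their own way: the median r with the other members was -0.677 for Car12, -0.667 for Epas1, -0.428 for Hk1 and -0.405 for Hif1a in KO, and -0.288, -0.065, 0.034 and -0.094 in WT. Without KO 12, Hif1a turned to 0.409, and Car12 and Epas1 stayed below 0 at -0.151 and -0.285. Pfkm was below 0 in both groups (-0.189 in KO, -0.411 in WT).

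For 12 pairs of genes the relation was tested in each group by permutation (100000 resamples, two-sided, Benjamini-Hochberg over 24 relations). By Pearson's r, 17 of 24 relations passed, 9 in KO and 8 in WT, and 8 pairs passed in both groups. By Spearman's rho 8 passed. Slc2a1 with Ndrg1 had r = 0.91 and rho = 0.93 in KO (permutation p = 0.00011 and 3e-05, adjusted p = 0.00264 and 0.00072) and r = 0.85 and rho = 0.75 in WT (permutation p = 0.00071 and 0.00701, adjusted p = 0.00672 and 0.0336). Leaving out the 2 libraries farthest from the median of Slc2a1 gave r = 0.77 in KO and 0.69 in WT. Car9 with Adm had r = 0.79 in KO and 0.76 in WT (adjusted permutation p = 0.00672 and 0.0105), with rho = 0.75 and 0.81 (adjusted permutation p = 0.0336 and 0.0194), and r was 0.62 and 0.78 without the 2 farthest libraries. Pgk1 with Bnip3 had r = 0.81 in both groups (adjusted permutation p = 0.0149 and 0.00672) and rho = 0.64 and 0.66, which did not pass (adjusted permutation p = 0.0633 and 0.0534). Its r was 0.29 in KO without the 2 farthest, so in KO it rests on them. Over all 24, no relation kept an adjusted p under 0.05 without its 2 farthest libraries, and 8 of the 17 had an unadjusted permutation p under 0.05 there. Hif1a with Pgk1 gave r = -0.42 in KO, and 0.69 without KO 12. Ldha with Pdk1 gave 0.48 in KO, and -0.09 without KO 12. With all libraries of a group kept, neither relation passed in KO or WT. Without KO 12, a removal chosen after seeing the data, Hif1a with Pgk1 in KO had an adjusted permutation p of 0.0421.

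Relations to other cell types were read in the same family. Epas1 with Pecam1, an endothelial surface protein, had r = 0.67 in KO and 0.77 in WT (adjusted permutation p = 0.0212 and 0.00917), and 0.61 and 0.70 without the 2 farthest libraries. By rank it passed in KO (rho = 0.73, adjusted permutation p = 0.0347) and not in WT (rho = 0.67, adjusted permutation p = 0.0534). Pfkm with Ckm, the muscle creatine kinase, had r = 0.68 in KO and 0.65 in WT (adjusted permutation p = 0.0149 and 0.0337), and 0.31 and 0.66 without the 2 farthest. By rank it passed in neither group (rho = 0.52 and 0.63, adjusted permutation p = 0.132 and 0.0633). In KO the muscle relation rests on KO 11 and KO 8, the libraries left out.

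**Figure D5:**
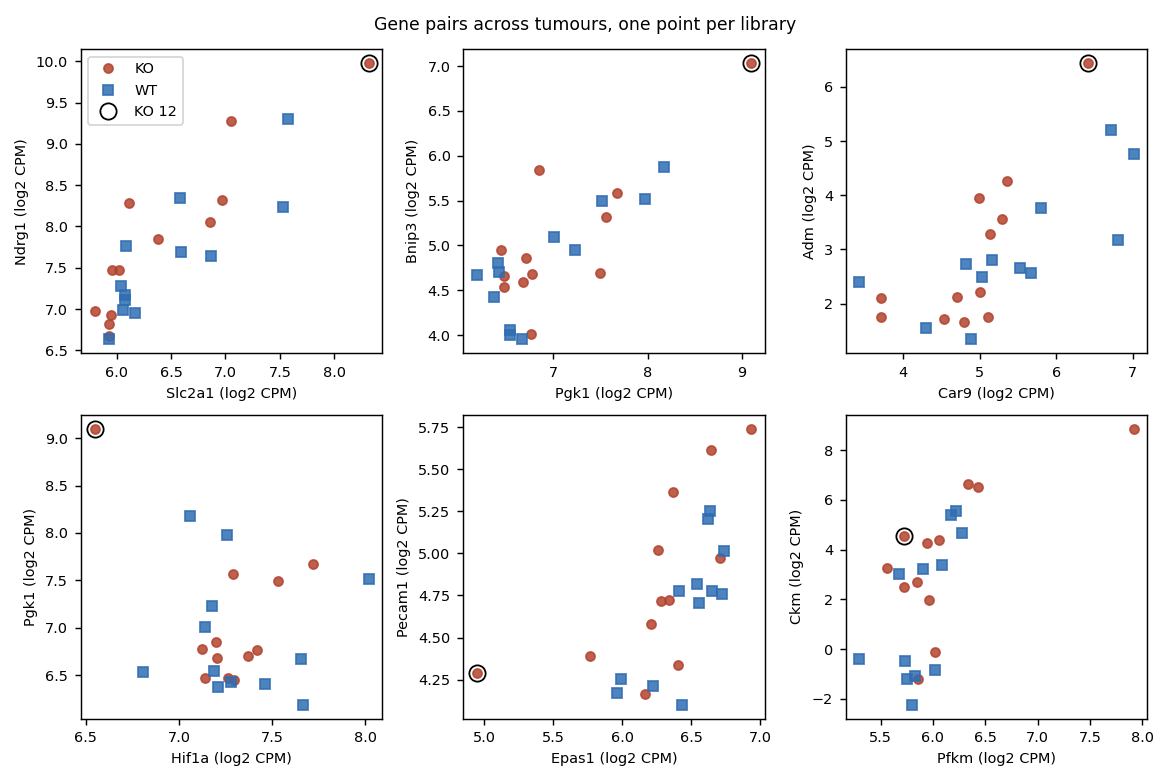
The 6 pairs of genes in log2 CPM, one point per library, KO as red circles and WT as blue squares, with KO 12 ringed. Slc2a1 rises with Ndrg1 in both groups, and KO 12 alone turns the KO relation of Hif1a and Pgk1 below 0.

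Genes around the members were read from 5 further lists, whose counts stand against 0.177% of all genes higher and 0.139% lower past the test, 10% higher and 8.9% lower at an unadjusted p under 0.05, and 51.3% above 0. Among 20 genes of gluconeogenesis and pyruvate fate, 1 rose past the test, and 8 were higher and 0 lower at an unadjusted p under 0.05, 17 above 0 and a median log2 change of 0.29. The gene called was Pdhb, the E1 beta subunit of pyruvate dehydrogenase: KO values were 106, 138 and 237 CPM (lowest, median, highest) and WT values 88.2, 105 and 120 CPM. All 12 KO libraries were above the WT median, while the ranges still overlapped (log2 change 0.51 ± 0.11 (SE), edgeR adjusted p = 0.0366). Dld, the shared E3 subunit, was at 0.32 ± 0.07 (edgeR adjusted p = 0.0541), and Pdhx, which tethers E3, at 0.30 ± 0.09 (edgeR adjusted p = 0.107). Dlat and Pdha1, the other subunits, chosen after their values were seen, were at 0.27 ± 0.08 and 0.15 ± 0.07. Without KO 11 and KO 12, 6 genes of the list were higher and 1 lower at an unadjusted p under 0.05 (6.66% and 8.29% of all genes), and with the covariates 4 were higher (10.9% of all genes). Pdhb kept its call in 11 of 24 fits that left out 1 library, and its log2 change ran from 0.42 to 0.55 there.

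Among 17 genes of the pentose phosphate and glycogen routes, 1 rose past the test (0.177% of all genes), 15 were above 0 (51.3% of all genes), and at an unadjusted p under 0.05 5 were higher and 0 lower (10% and 8.9% of all genes). Gyg1, glycogenin, which primes glycogen synthesis, was called: KO values were 34.7, 48.8 and 61.9 CPM and WT values 29.3, 33.5 and 47.3 CPM (0.46 ± 0.10 (SE), edgeR adjusted p = 0.0381). It kept its call in 7 of 24 fits that left out 1 library. Both the fit without KO 11 and KO 12 and that with covariates had 3 genes of this list higher at an unadjusted p under 0.05, against 6.66% and 10.9% of all genes, and without KO 11 alone there were 3 (8.74% of all genes). Pgd, of the oxidative pentose phosphate branch, was at 0.38 ± 0.12 (edgeR adjusted p = 0.131). Among 10 tested genes of the other glycolysis list, none passed, and an unadjusted p under 0.05 was reached by 4, all higher (10% of all genes), and by 1 without KO 11. Bpgm had the smallest p of this list, at 0.35 ± 0.11 (edgeR adjusted p = 0.132). Pgam2 and Eno3, the muscle isoforms, were at 1.74 ± 0.62 and 1.37 ± 0.56. Both were highest in KO 11, at 75.4 and 302 CPM, against KO medians of 4.09 and 16.9 CPM. At an unadjusted p under 0.05, 8 of 9 tested muscle markers were higher (10% of all genes). With muscle and adipocyte scores as covariates Pgam2 and Eno3 were at -0.14 and -0.34. The part of muscle in their changes was not tested. Of 30 other HIF targets, 12 were above 0 and 18 below (51.3% of all genes above 0). Their median log2 change was -0.026, and none passed. An unadjusted p under 0.05 was reached by 2, both higher, a smaller share than the 10% of all genes. They were Hilpda, a lipid-droplet protein, at 0.31 ± 0.13 and Bhlhe40, a transcriptional repressor, at 0.44 ± 0.19. Without KO 9 the count reaching that level was 1, and without KO 12 it was 0. Of 17 tested HIF regulators, none passed. At an unadjusted p under 0.05, 4 were higher and 1 lower (10% and 8.9% of all genes). Siah1a (0.19 ± 0.07), Rbx1 (0.21 ± 0.09) and Siah2 (0.28 ± 0.12) were among the higher ones. Siah1a had the smallest p of the list (edgeR adjusted p = 0.161). The lower one was the coactivator Crebbp (-0.20 ± 0.08). Without KO 12, 2 regulators were higher at that level.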

How the data were processed

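Per the labels' protocols, tumours were frozen and homogenised for RNA, and a stranded mRNA kit was used for the libraries. The deposited count files hold whole-number read counts per gene, made by the authors with featureCounts 2.0.0 on a GRCm39 annotation, per the file headers, with no strand option recorded. STAR and Subread are listed too, per the submitters' processing notes, with versions not given in the sources used here. The authors' deposited table holds their own log2 changes and p-values for KO against WT, and names 34 members; Eno2 was named from RefSeq (GRCm38.p6). The members and gene lists were chosen with earlier results of these data known.

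Counts of 24 libraries (12 KO, 12 WT) were filtered with filterByExpr, which left 15820 genes, TMM-scaled, and fitted in R 4.3.3 by edgeR 4.0.16, whose two-sided quasi-likelihood test was adjusted by Benjamini-Hochberg over all genes (threshold 0.05). CPM are TMM-scaled, log2 CPM used a prior count of 2, and TPM used the exon length in the files. On simulated counts 27 of 50 changes of 1.5-fold and 43 of 50 of 2-fold were recovered. Paralogue ratios added 0.5 reads to each gene. No library repeated another of its group: chi-square over degrees of freedom was at least 23.3 in all 132 pairs. The rank correlation of log2 change with exon length over all genes was -0.34. Alternatives were RLE and upper-quartile scaling, library totals only, limma 3.58.1 voom with quality weights, DESeq2 1.42.0, no filter, a stricter filter (1 CPM in 12 libraries), muscle and adipocyte covariates, length offsets, named pseudogene copies summed with their gene, and leaving out libraries. Library totals only, the removal of KO 12 from correlations, and the counts of each list with covariates or with libraries left out were chosen after seeing the data. Each of the 35 members is given with its log2 change, and in more detail where the unadjusted p was under 0.05 or the change was largest or smallest. From each other list up to 3 genes of smallest p in each direction could be named. Adm, Slc2a1 and other members given in detail beyond that were chosen after their values were seen.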

Additional observations from a re-analysis of the deposited data

How the results depend on the processing

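No member was called under any of the 13 other settings or the 24 fits that left out 1 library; the lowest adjusted p ran from 0.098 to 0.29 and from 0.17 to 0.33. Over all genes, edgeR called 50, DESeq2 495, the covariate fit 98 and the fit without KO 11 and KO 12 31. No paired analysis was possible because the KO numbers run from 1 to 12 and the WT numbers from 13 to 24, with none shared. Directions of members with changes near 0 turned often: 49 of 384 values under other settings and 54 of 840 with 1 library left out had the opposite sign, and the cause was not tested except where libraries were removed. The thinnest depth was that of Eno2, with as few as 10 reads in a library.

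The opposite log2 changes were Pfkl -0.016 and Aldoa -0.0094 with upper-quartile scaling, and Slc2a1 -0.028, Gpi1 -0.038, Pfkl -0.066, Aldoa -0.050 and Bnip3l -0.045 with library totals only. DESeq2 gave Adm -0.53 and Ankrd37 -0.081, after replacing KO 12. Voom gave Slc2a1 -0.015, Gpi1 -0.071, Pfkl -0.098, Aldoa -0.025, Gapdh -0.0012, Pgam1 0.013, Eno2 0.041, Pfkfb3 0.031, Adm -0.027 and Hif1a 0.041. Pfkl and Aldoa were -0.0041 and -0.0044 with no filter, and -0.0031 and -0.00084 with the stricter one. The covariates gave Hk1 0.029, Pfkm -0.048, Pfkp 0.11, Pgam1 0.17, P4ha2 0.0014, Pgam2 -0.14, Eno3 -0.34 and Gys1 0.099. Length offsets gave Slc2a1 -0.00092, Hk1 0.028, Gpi1 -0.0024, Pfkp 0.018, Aldoa -0.055, Gapdh -0.011 and Pfkfb3 0.061. Without KO 11 and KO 12 the values were Slc2a1 -0.21, Hk1 0.024, Gpi1 -0.17, Pfkl -0.093, Aldoa -0.21, Tpi1 -0.018, Gapdh -0.15, Pgk1 -0.098, Pdk1 -0.0032, Adm -0.46, Bnip3 -0.077, Bnip3l -0.089, Ankrd37 -0.063 and Egln1 -0.076, the Hk2 to Hk1 ratio difference was -0.012, and in KO Ldha with Pdk1 had r = -0.026 and Hif1a with Pgk1 r = 0.70. Those relations had r = -0.46 and 0.49 without the 2 farthest libraries, and -0.086 and 0.69 without KO 12.

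Leaving out 1 library moved the log2 change of Pfkfb3 from -0.12 to 0.11, Hk1 from -0.052 to 0.046, Aldoa from -0.13 to 0.20, Pgam1 from -0.18 to 0.047, Eno2 from -0.24 to 0.052, Pfkl from -0.12 to 0.069, Slc2a1 from -0.25 to 0.20, Gpi1 from -0.16 to 0.10, Tpi1 from -0.015 to 0.32, Gapdh from -0.14 to 0.23, Pgk1 from -0.11 to 0.41, Pkm from -0.011 to 0.24, Adm from -0.53 to 0.75, Bnip3l from -0.074 to 0.063, Ankrd37 from -0.073 to 1.35, Ero1a from -0.022 to 0.36, Ddit4 from -0.016 to 0.39, Egln1 from -0.0092 to 0.26, Egln3 from -0.32 to 0.011, Pfkfb4 from -0.14 to 0.015, Gys1 from -0.13 to 0.049 and Pck2 from -0.21 to 0.0036. The ratio differences of P4ha2 to P4ha1 and Pfkfb4 to Pfkfb3 ran from -0.14 to 0.049 and from -0.14 to 0.070.

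As reported, 2 genes of the other pathway lists were called, where 50 of all 15820 genes were. DESeq2 called 6 of the lists, and 495 of all 18247 genes. With no filter, with covariates, without KO 11 and KO 12, with length offsets and with library totals only, 1 was called. Those fits called 45, 98, 31, 53 and 34 of all genes, in that order. Leaving out 1 library gave 0 to 3, and 9 to 72 of all genes. Of 24 relations, 17 passed, 7 passed without KO 11 and KO 12, and 0 without the 2 farthest libraries (lowest adjusted permutation p 0.073).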
